A study of Capra hircus with 9 samples.

Results

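Autophagy machinery genes encode the proteins that build the autophagosome, attach marker proteins to its membrane, choose its cargo or switch the pathway on. They were taken from the gene expression table of goat mammary gland by symbol, as the ATG genes together with ULK1, ULK2, RB1CC1, BECN1, PIK3C3, UVRAG, AMBRA1, VMP1, the WIPI, MAP1LC3 and GABARAP genes, the cargo receptors SQSTM1, NBR1, OPTN, BNIP3 and BNIP3L, and the transcription factors TFEB and TFE3. Of 23499 genes in the table, 41 were members. PIK3R4, which the symbol rule also names, was not analysed here. The tissue came from 9 healthy goats of the Laoshan breed from China, kept for milk, which were about 4 years old, in the third parity and kept on the same farm and feed. There were 3 goats in late lactation (LL, 240 days postpartum), 3 in the dry period (DP, 300 days postpartum) and 3 in late gestation (LG, 140 days after mating). Mammary tissue was collected at slaughter, and 1 library per goat was made from total RNA with a kit that does not keep the strand. Libraries are named by stage and replicate number, and values of a stage are listed in the order of replicates 1, 2 and 3.

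In autophagy, a membrane closes around cytoplasm, and the resulting vesicle, the autophagosome, fuses with the lysosome. A protein kinase complex with ULK1 or ULK2 starts the process, a lipid kinase complex with BECN1 marks the growing membrane, and a ubiquitin-like conjugation system couples ATG8 proteins to it, where cargo receptors bind. In the mammary gland, autophagy is best known from the period after milk removal ends, when secretory epithelium regresses and is later rebuilt.

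Values were taken to be FPKM, fragments divided by transcript length and library size, although the table gives no unit, and comparisons of levels between genes rest on this. The sum of FPKM was higher in LL, where the top 10 genes made up 80.6% to 86.0% of it, than in DP and LG, where the top 10 made up 53.6% to 58.5%. Each library was therefore divided by a median-ratio factor, 0.498, 0.553 and 0.605 (LL), 1.53, 1.44 and 1.44 (DP) and 1.20, 1.23 and 1.31 (LG), and levels below are these scaled FPKM. Without the factors, the median log2 fold change of all genes tested was 1.09 for DP and 0.93 for LG relative to LL, and -0.18 for LG relative to DP, so every fold change is relative to the bulk of genes. Fold changes are differences of log2(scaled FPKM + 1), which understates the change of genes with low values. The number of reads behind a value is unknown. A gene was called higher or lower at a Benjamini-Hochberg adjusted p under 0.05 over all 14701 genes tested and an absolute log2 difference of 1 or more. In this bulk tissue, fewer cells of a type and less RNA per cell cannot be told apart.

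Of the 41 members, 39 had at least 0.5 FPKM in at least 3 libraries and were tested. ATG9B, a relative of the membrane protein ATG9A, did not reach that level, with a scaled FPKM of 0.0603, 0.145 and 0.0991 (LL), 0.144, 0.0832 and 0.0903 (DP) and 0.142, 0.211 and 0.160 (LG). MAP1LC3C, the other member that was not tested, had a scaled FPKM of 0.161, 0.398 and 0.149 (LL), 0.229, 0.0763 and 1.83 (DP) and 0.192, 0.235 and 0.251 (LG), so that DP replicate 3 stood above every other library.

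In DP against LL, 4 of the 39 members were called higher (TFEB, ULK1, ATG10 and ATG16L2), 10.3% against 13.8% of all genes tested, and 3 were called lower (ATG12, BNIP3 and GABARAPL1), 7.69% against 8.79%. In LG against LL, 4 were called higher (TFEB, ULK1, ATG10 and NBR1), with 10.7% of all genes, and 3 lower (ATG12, BNIP3 and GABARAPL1), with 6.61% of all genes. In LG against DP, limma called 0 members higher, where 6.37% of all genes were called and 6 members had an unadjusted p under 0.05, and 2 members lower (SQSTM1 and VMP1), with 6.88% of all genes. By adjusted p alone, 8 members were higher and 8 lower in DP against LL (all genes, 28.2% and 28.6%), 7 higher and 8 lower in LG against LL (25.6% and 24.6%), and 3 higher and 7 lower in LG against DP (18.4% and 16.4%). The median log2 fold change of the members tested was 0.094, -0.10 and -0.019 in the 3 comparisons in that order, and that of all genes tested was 0.0041, 0.019 and 0.0083. With the fold threshold, the share of members called was above that of all genes in 1 of the 6 counts, lower in LG against LL, and the results below concern single genes. The 3 comparisons share libraries and are not independent of each other.

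**Figure D1:**
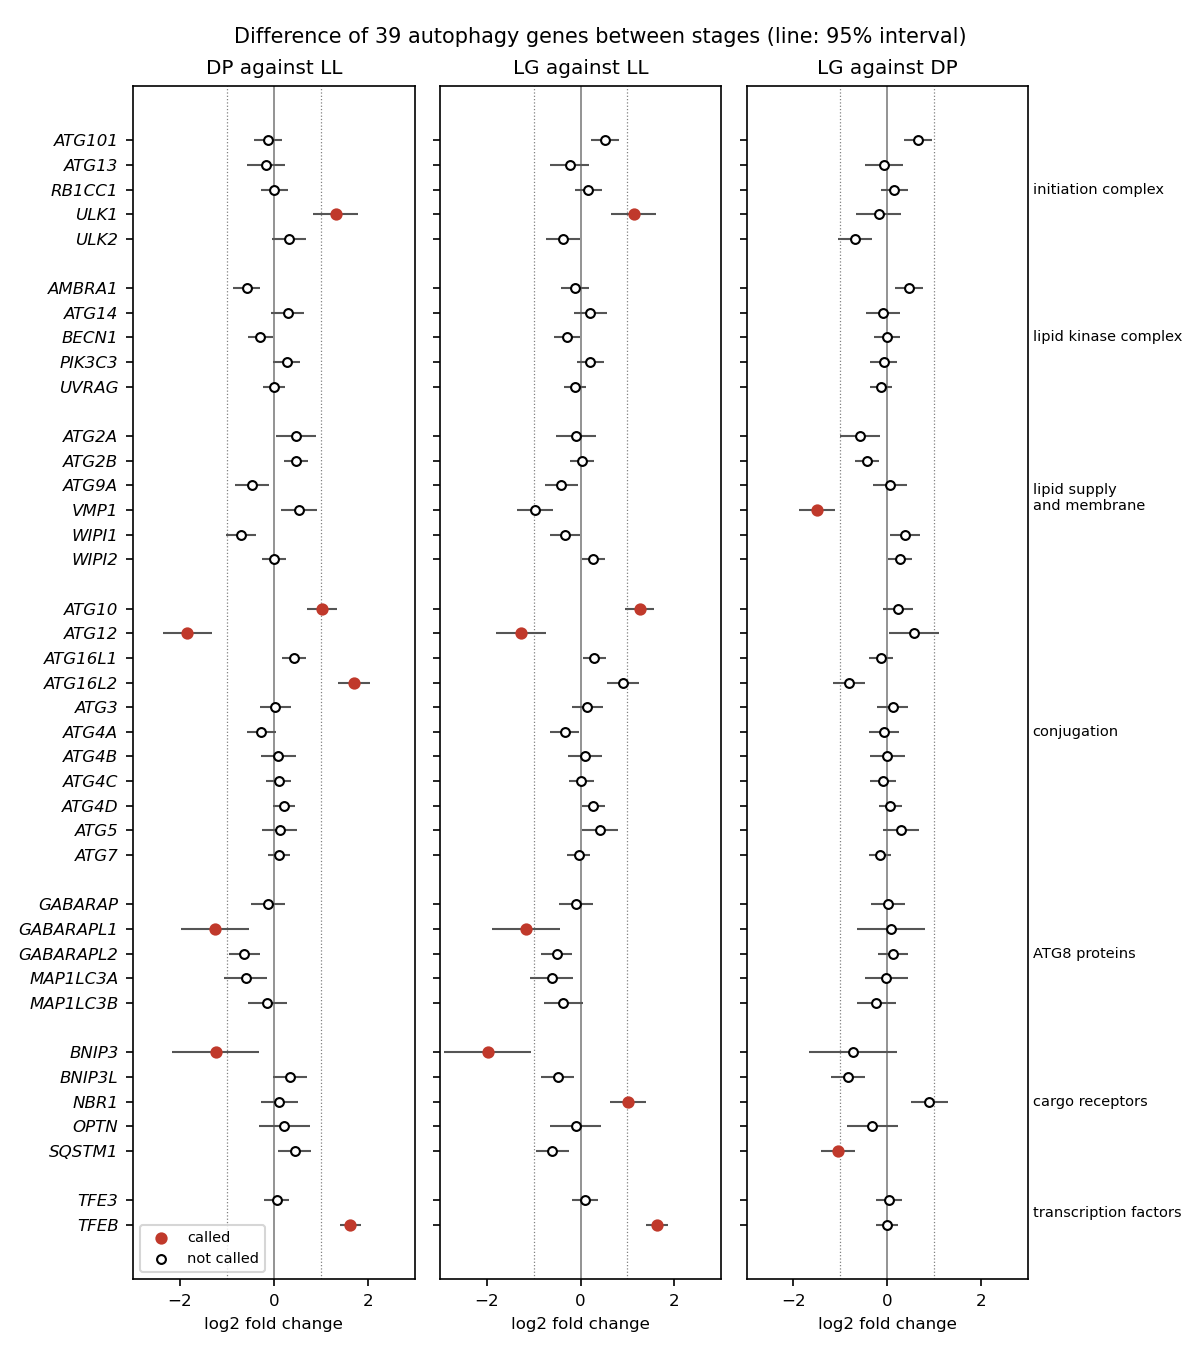
Log2 fold change of the 39 members tested (horizontal axis, log2(scaled FPKM + 1) scale) in each comparison, grouped by role, with 95% intervals as lines, dotted lines at 1 and -1 and filled points for called members. Most members lie between the dotted lines, and 7, 7 and 2 members are called in the panels from left to right.

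The initiation complex consists of the kinases ULK1 and ULK2 and their partners ATG13, ATG101 and RB1CC1 (also named FIP200). ULK1 (gene ID 102173325, chromosome 17, 26007042 to 26030047) had a scaled FPKM of 0, 0.343 and 0.760 (LL), 2.06, 2.72 and 2.22 (DP) and 1.39, 2.29 and 2.18 (LG). It was listed at 0 in LL replicate 1, and all 3 LL libraries lay below every DP and LG library. As deposited, ULK1 was at 0, 0.19 and 0.46 FPKM in LL, under the filter on low values. The log2 fold change of ULK1 was 1.32 (SE 0.21, adjusted p = 6.89e-04) for DP and 1.13 (SE 0.21, adjusted p = 0.00198) for LG relative to LL, and -0.19 (SE 0.21, adjusted p = 0.527) for LG relative to DP. Without LL replicate 1, that of LG against LL was 0.96, under the fold threshold. The calls of ULK1 were also lost with unscaled values taken relative to the median of all genes, at 0.79 in DP and 0.57 in LG relative to LL, and in LG against LL after quantile normalization (0.88). ULK2, its close relative, was the more abundant of the pair, with a scaled FPKM of 7.33, 11.7 and 8.69 (LL), 12.1, 10.7 and 12.1 (DP) and 7.49, 6.33 and 6.74 (LG). ULK2 was lower in LG than in DP by adjusted p alone, with a log2 fold change of -0.69 (adjusted p = 0.0100) and no overlap of the 2 stages. ATG101, a stabilizing partner of ATG13, had a scaled FPKM of 6.05, 5.89 and 7.09 (LL), 5.95, 5.83 and 5.39 (DP) and 8.24, 9.40 and 11.3 (LG). All LG libraries lay above those of LL and DP, with log2 fold changes of 0.53 (adjusted p = 0.00931) against LL and 0.65 (adjusted p = 0.00505) against DP, both under the fold threshold. ATG13 and RB1CC1 passed the adjusted p in no comparison, with log2 fold changes from -0.23 to 0.17.

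The lipid kinase complex makes phosphatidylinositol 3-phosphate through PIK3C3, with BECN1 as scaffold, ATG14 or UVRAG as alternative partners and AMBRA1 as regulator of BECN1. BECN1 (gene ID 102190728, chromosome 19, 42483195 to 42494069) was the most abundant of the 5 by scaled FPKM, at 22.1, 19.7 and 18.4 (LL), 16.5, 15.9 and 16.3 (DP) and 16.9, 15.3 and 16.5 (LG). The LL libraries were above all DP and LG libraries, but the difference did not pass the test. Its log2 fold change was -0.29 (adjusted p = 0.0694) in DP against LL, with a 95% interval of -0.56 to -0.013, -0.29 (adjusted p = 0.0745) in LG against LL, with -0.56 to -0.015, and -0.0023 (adjusted p = 0.991) in LG against DP, with -0.28 to 0.27. Without scaling BECN1 turned to 1.05 in DP against LL, which was called. It also turned in LG against LL, where its highest value over the alternatives was 0.82. In DP against LL the adjusted p of BECN1 was 0.0374 without the filter on low values. It was 0.0351 without the genes listed after those at 0, described below. AMBRA1 had a scaled FPKM of 9.92, 10.3 and 9.43 (LL), 5.82, 6.81 and 6.21 (DP) and 7.80, 8.93 and 10.6 (LG). The DP libraries were the lowest without overlap, and the log2 fold change of AMBRA1 was -0.58 (adjusted p = 0.00464) in DP against LL and 0.47 (adjusted p = 0.0217) in LG against DP, the former turning to 0.67 without scaling. PIK3C3, ATG14 and UVRAG passed the adjusted p in no comparison, and their stage means were 8.67 to 10.7, 3.02 to 4.02 and 5.48 to 6.07 scaled FPKM.

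A further 7 members supply lipid or membrane, namely the lipid transfer proteins ATG2A and ATG2B, the scramblases ATG9A, ATG9B and VMP1, and WIPI1 and WIPI2, which bind the lipid made by PIK3C3. VMP1 (gene ID 102168385, chromosome 19, 10301693 to 10429499), a protein of the endoplasmic reticulum, had a scaled FPKM of 19.6, 14.3 and 13.6 (LL), 24.7, 20.4 and 24.3 (DP) and 6.43, 7.96 and 8.31 (LG). The 3 stages did not overlap, with DP highest and LG lowest. VMP1 fell in LG against DP, with a log2 fold change of -1.50 (SE 0.17, adjusted p = 2.57e-04), and was at -0.96 (adjusted p = 0.00146) in LG against LL and 0.53 (adjusted p = 0.0233) in DP against LL, both under the fold threshold, with the former at 0.11 without scaling. The value in DP against LL was 1.86 without scaling, past the threshold. The call of VMP1 in LG against LL turned on single libraries, with log2 fold changes of -1.04 without LL replicate 2, -1.08 without LL replicate 3 and -1.02 without LG replicate 3, and it also passed with a pseudocount of 0.1 (-1.05). WIPI1 had a scaled FPKM of 8.80, 10.7 and 8.90 (LL), 4.77, 5.30 and 6.41 (DP) and 7.06, 8.41 and 6.65 (LG). Its log2 fold change was -0.69 (adjusted p = 0.00290) in DP against LL, where the stages did not overlap, but 0.54 without scaling. ATG2B had a scaled FPKM of 2.09, 2.19 and 2.61 (LL), 3.29, 4.11 and 3.35 (DP) and 2.33, 2.39 and 2.38 (LG), with a log2 fold change of 0.47 (adjusted p = 0.00621) in DP against LL and -0.44 (adjusted p = 0.0148) in LG against DP. DP libraries of ATG2B were above all others. ATG2A had a log2 fold change of -0.58 (adjusted p = 0.0414) in LG against DP, with overlap of LG replicate 2 and DP replicate 1, and ATG9A one of -0.47 (adjusted p = 0.0302) in DP against LL, which was 0.74 without scaling, whereas WIPI2 passed the adjusted p in no comparison.

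The values of VMP1, ATG9A and GABARAPL2 are not separate measurements. In each library, ATG9A minus its neighbour ABCB6 was 1.00, 1.30 and 1.50 FPKM (LL), 1.00, 1.50 and 1.50 (DP) and 1.50, 1.20 and 1.00 (LG) as deposited. VMP1 exceeded LOC108638243, and LOC108637951 exceeded GABARAPL2, by these amounts plus a constant, each pair on the same strand. In 676 pairs of neighbouring genes of the table, the values differed by these same amounts plus a constant. How this arose, and which gene of each pair was measured, is not known. Such a link was found for 1506 genes of the table.

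Conjugation was covered by 11 members: the E1-like enzyme ATG7, the E2-like enzymes ATG3 and ATG10, the ubiquitin-like ATG12 and its target ATG5, the adaptors ATG16L1 and ATG16L2, and the proteases ATG4A to ATG4D, which trim ATG8 proteins. ATG12 (gene ID 102190519, chromosome 10, 96522785 to 96543126) had a scaled FPKM of 33.8, 31.1 and 16.8 (LL), 7.13, 6.57 and 6.06 (DP) and 10.9, 8.79 and 11.1 (LG). It was highest in LL, where replicate 3 was the lowest library but above all DP and LG libraries, and DP and LG did not overlap. ATG12 fell in DP against LL, with a log2 fold change of -1.84 (SE 0.23, adjusted p = 1.70e-04), and in LG against LL, with -1.27 (SE 0.23, adjusted p = 0.00189), and that of LG against DP was 0.57 (adjusted p = 0.0871). Without scaling these values were -0.53 and -0.16 against LL, neither of them called. ATG10 (gene ID 102190129, chromosome 7, 28378779 to 28655953), which passes ATG12 to ATG5, had a scaled FPKM of 0.643, 0.488 and 0.462 (LL), 2.63, 2.09 and 1.70 (DP) and 3.15, 2.42 and 2.45 (LG). All LL libraries of ATG10 were below those of the other stages, at 0.32, 0.27 and 0.28 FPKM as deposited, under the filter on low values. The log2 fold change of ATG10 was 1.03 (SE 0.14, adjusted p = 2.79e-04) in DP against LL and 1.26 (SE 0.14, adjusted p = 1.12e-04) in LG against LL. In DP against LL it was 0.89 without DP replicate 1, 0.98 with the libraries of these 2 stages only and 0.47 after quantile normalization, under the fold threshold, and so was LG against LL after quantile normalization (0.86). With unscaled values relative to the median of all genes, ATG10 was at 0.58 in DP and 0.81 in LG relative to LL, also under it. In LG against DP it was 0.23 (adjusted p = 0.230), with overlap.

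ATG16L2 (gene ID 102180062, chromosome 15, 30647256 to 30667217), a relative of ATG16L1, had a scaled FPKM of 0.462, 0.0181 and 0.116 (LL), 3.15, 2.94 and 2.59 (DP) and 1.02, 1.29 and 1.35 (LG). The 3 stages did not overlap, with LL lowest and DP highest. In LL, ATG16L2 was at 0.23, 0.01 and 0.07 FPKM as deposited, under the filter on low values. ATG16L2 rose in DP against LL, with a log2 fold change of 1.72 (SE 0.15, adjusted p = 2.24e-05), and had 0.90 (adjusted p = 0.00122) in LG against LL and -0.81 (adjusted p = 0.00329) in LG against DP. The value in LG against DP was -1.06 without scaling, past the threshold. Without LL replicate 1, the highest LL library, the value in LG against LL was 1.12, past the threshold, as without scaling (1.20) or with a pseudocount of 0.1 (2.43), and with unscaled values relative to the median of all genes it was 0.27, with adjusted p from 4.61e-05 to 0.161 over the alternatives. ATG16L1, the form that recruits the conjugation enzymes to the autophagosomal membrane, had a scaled FPKM of 3.998, 3.56 and 3.96 (LL), 5.24, 5.36 and 6.02 (DP) and 4.50, 4.92 and 5.44 (LG), with a log2 fold change of 0.43 (adjusted p = 0.00855) in DP against LL and 0.30 (adjusted p = 0.0481) in LG against LL. ATG5 had a scaled FPKM of 7.37, 5.69 and 5.88 (LL), 9.25, 6.19 and 5.75 (DP) and 9.12, 8.50 and 8.39 (LG), and did not pass the adjusted p. ATG3, ATG7 and ATG4A to ATG4D also passed it in no comparison, with log2 fold changes from -0.34 to 0.28. The ratio of ATG12 to ATG5 within a library, which no scaling between libraries changes, was 4.58, 5.47 and 2.87 (LL), 0.771, 1.06 and 1.05 (DP) and 1.20, 1.03 and 1.33 (LG). The LL libraries had the highest ratios without overlap. ATG12 is among the genes listed after those at 0, described below, and ATG5 is not. This ratio and those given below were chosen after the values were seen and were not tested.

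The ATG8 proteins are coupled to the autophagosomal membrane and are the docking sites of cargo receptors. GABARAPL1 (gene ID 102184507, chromosome 5, 98206313 to 98217002) had a scaled FPKM of 52.2, 86.3 and 67.4 (LL), 30.7, 32.4 and 21.6 (DP) and 18.1, 30.5 and 46.3 (LG). All LL libraries were above the others, and LG replicate 3 came closest to them. GABARAPL1 fell in DP against LL, with a log2 fold change of -1.24 (SE 0.32, adjusted p = 0.00928), and in LG against LL, with -1.16 (SE 0.32, adjusted p = 0.0143), but without scaling its value in DP against LL turned to 0.14 and that in LG against LL was -0.0071. After quantile normalization neither call of GABARAPL1 held (-0.65 in DP and -0.82 in LG relative to LL), nor with unscaled values relative to the median of all genes (-0.95 and -0.94), and its adjusted p ranged from 0.00385 to 0.719 and from 0.00509 to 0.987 over the alternatives. The LG against LL value was -0.997 without LL replicate 2 and -0.82 without LG replicate 1, under the fold threshold. In LG against DP the log2 fold change of GABARAPL1 was 0.084 (adjusted p = 0.863). MAP1LC3B (gene ID 102185857, chromosome 18, 14369952 to 14384866), the LC3 form most used as a marker of autophagosomes, had a scaled FPKM of 6.95, 12.04 and 9.13 (LL), 8.31, 9.71 and 6.95 (DP) and 6.46, 6.83 and 7.37 (LG). The ranges of DP and LG each overlapped that of LL. The log2 fold change of MAP1LC3B was -0.14 (adjusted p = 0.554) for DP and -0.37 (adjusted p = 0.128) for LG relative to LL, and -0.23 (adjusted p = 0.360) for LG relative to DP, with 95% intervals of -0.55 to 0.28, -0.79 to 0.051 and -0.65 to 0.19.

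MAP1LC3A had a scaled FPKM of 38.8, 37.2 and 27.3 (LL), 19.2, 22.9 and 24.7 (DP) and 18.9, 28.7 and 19.3 (LG), with a log2 fold change of -0.60 (adjusted p = 0.0313) in DP against LL and -0.62 (adjusted p = 0.0307) in LG against LL. GABARAPL2 had a scaled FPKM of 52.0, 60.2 and 51.0 (LL), 37.8, 31.7 and 35.0 (DP) and 35.3, 36.5 and 42.0 (LG), with -0.63 (adjusted p = 0.00513) and -0.51 (adjusted p = 0.0158) in the same comparisons, and carries the link to its neighbour described above. GABARAP, with a scaled FPKM of 45.8, 49.7 and 41.3 (LL), 38.0, 48.9 and 39.3 (DP) and 36.3, 45.5 and 45.9 (LG), passed the adjusted p in no comparison. Of the summed FPKM of the 6 ATG8 genes in a library, GABARAPL1 held 26.6%, 35.1% and 34.3% (LL), 22.8%, 22.2% and 16.7% (DP) and 15.7%, 20.6% and 28.8% (LG). GABARAP held 23.4%, 20.2% and 21.0% (LL), 28.3%, 33.6% and 30.4% (DP) and 31.5%, 30.7% and 28.5% (LG), and MAP1LC3B held 3.55%, 4.90% and 4.65% (LL), 6.19%, 6.67% and 5.38% (DP) and 5.61%, 4.61% and 4.57% (LG). The share of GABARAP was lowest in LL without overlap, whereas that of GABARAPL1 overlapped between LL and LG. In every comparison against LL the 5 ATG8 members tested had log2 fold changes below 0, and without scaling those of DP against LL were above 0 for GABARAP (1.26), MAP1LC3B (1.11), GABARAPL2 (0.75) and MAP1LC3A (0.77) as well, and so were those of LG against LL for these 4 (1.05, 0.66, 0.64 and 0.52).

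**Figure D2:**
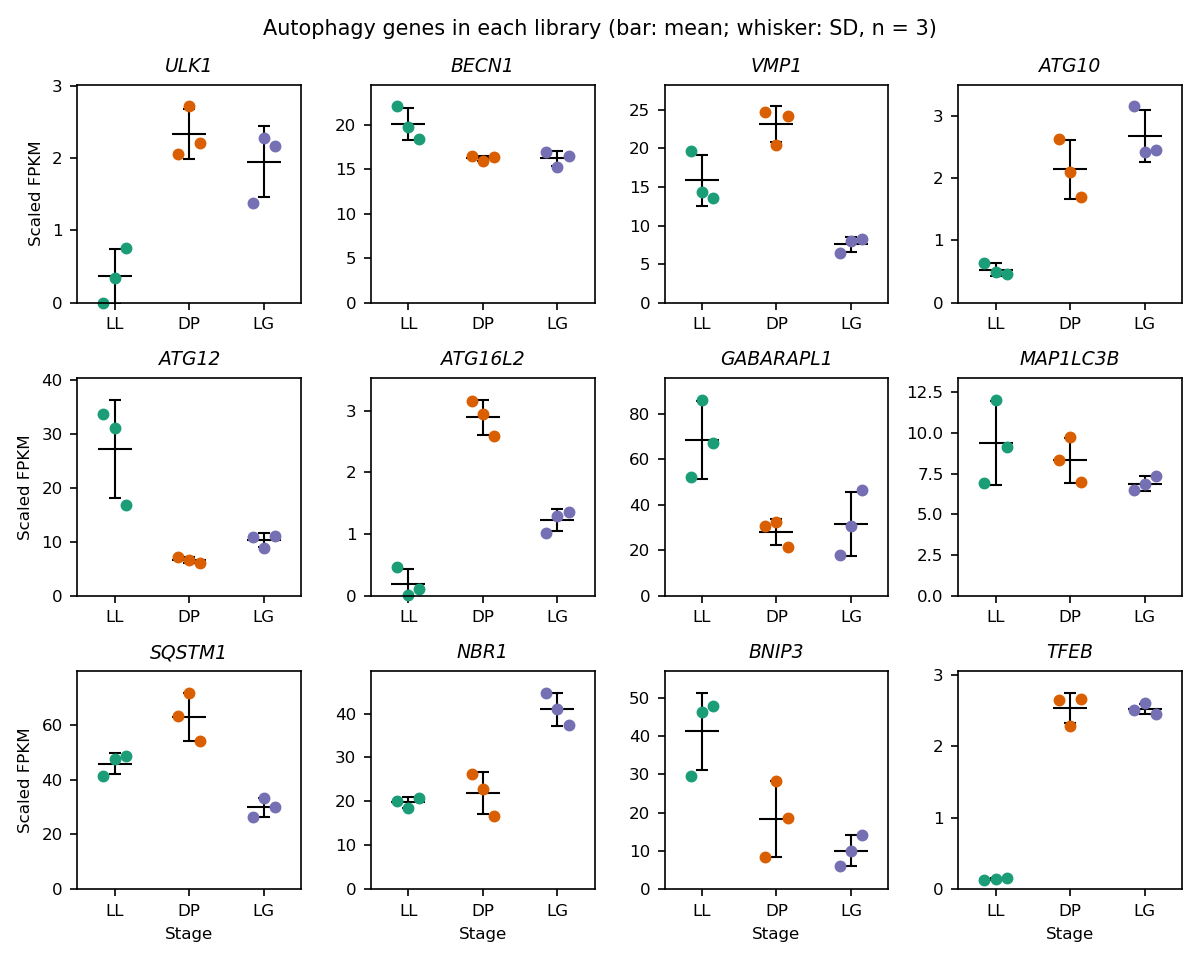
Scaled FPKM (vertical axis, from 0) of 12 members in each library of LL, DP and LG, with the mean as a bar and the SD (n = 3) as whiskers. TFEB lies between 0.121 and 0.149 in LL and is lowest among the other libraries in DP replicate 2 (2.29), and SQSTM1 and VMP1 are highest in DP and lowest in LG.

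The cargo receptors bind both the cargo and ATG8 proteins. SQSTM1 (gene ID 102172251, chromosome 7, 107369552 to 107380589), also named p62, collects ubiquitinated proteins and had a scaled FPKM of 41.4, 47.3 and 48.6 (LL), 63.1, 71.6 and 54.0 (DP) and 26.5, 33.3 and 29.9 (LG). The 3 stages did not overlap, with DP highest and LG lowest. SQSTM1 fell in LG against DP, with a log2 fold change of -1.04 (SE 0.16, adjusted p = 0.00112), and was at 0.44 (adjusted p = 0.0382) in DP against LL and -0.60 (adjusted p = 0.0116) in LG against LL, under the fold threshold, with the latter at 0.55 without scaling. In LG against DP it was -0.94 without DP replicate 2 and -0.96 without LG replicate 1, also under the threshold, so that 1 member (VMP1) was called lower. After quantile normalization SQSTM1 was at 1.105 in DP against LL, past the threshold, as without scaling (1.83). NBR1 (gene ID 102173601, chromosome 19, 42810592 to 42838738), a receptor of similar build that works with SQSTM1, had a scaled FPKM of 20.2, 18.4 and 20.7 (LL), 26.1, 22.7 and 16.7 (DP) and 44.7, 41.0 and 37.3 (LG). The LG libraries were above all others. NBR1 rose in LG against LL, with a log2 fold change of 1.02 (SE 0.17, adjusted p = 0.00126), and was at 0.90 (adjusted p = 0.00369) in LG against DP and 0.12 (adjusted p = 0.571) in DP against LL. Without scaling NBR1 was called higher in DP against LL (1.46). Without LL replicate 2 or LG replicate 1 the value in LG against LL was 0.96 or 0.95, and without the genes listed after those at 0 0.99, all under the fold threshold, and without DP replicate 1 the value in LG against DP was 1.03, past it. The ratio of SQSTM1 to NBR1 within a library was 2.05, 2.58 and 2.35 (LL), 2.41, 3.15 and 3.23 (DP) and 0.593, 0.813 and 0.802 (LG), below 1 in all LG libraries and above 2 in all others.

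BNIP3 (gene ID 102178036, chromosome 26, 1265126 to 1275972), a receptor on mitochondria that is induced by low oxygen, had a scaled FPKM of 29.6, 46.2 and 47.9 (LL), 8.32, 28.3 and 18.5 (DP) and 5.92, 10.004 and 14.1 (LG). All LL libraries were above the others, by a small margin over DP replicate 2, and DP and LG overlapped. BNIP3 fell in LG against LL, with a log2 fold change of -1.98 (SE 0.42, adjusted p = 0.00369), and in DP against LL, with -1.24 (SE 0.42, adjusted p = 0.0287), but without scaling its value in DP against LL turned to 0.11 and that in LG against LL was -0.86, where the call was lost. The call in DP against LL was lost without LL replicate 2 (-1.17), LL replicate 3 (-1.14) or DP replicate 1 (-0.79). It was also lost after quantile normalization (-0.82), with unscaled values relative to the median of all genes (-0.98) and without the filter on low values (-1.24), and its adjusted p ranged from 0.00267 to 0.809 over the alternatives. In LG against DP the log2 fold change was -0.74 (adjusted p = 0.196), and -1.18 without DP replicate 1, which passed. BNIP3L, its relative on mitochondria, had a scaled FPKM of 12.7, 15.1 and 14.1 (LL), 19.4, 20.3 and 14.7 (DP) and 10.8, 10.1 and 8.27 (LG). LG was lowest without overlap, and the log2 fold change of BNIP3L was -0.83 (adjusted p = 0.00358) in LG against DP and -0.49 (adjusted p = 0.0288) in LG against LL, the latter turning to 0.59 without scaling. BNIP3L passed the fold threshold in LG against DP after quantile normalization (-1.06) and without scaling (-1.07). OPTN, a receptor of ubiquitinated cargo, had a scaled FPKM of 5.06, 6.81 and 5.09 (LL), 6.94, 5.95 and 7.24 (DP) and 5.82, 7.47 and 3.04 (LG), and passed the adjusted p in no comparison. The ratio of BNIP3 to BNIP3L was 2.33, 3.06 and 3.39 (LL), 0.428, 1.39 and 1.26 (DP) and 0.550, 0.994 and 1.70 (LG), highest in LL without overlap.

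TFEB and TFE3 are related transcription factors that bind lysosomal and autophagy genes. TFEB (gene ID 102174171, chromosome 23, 33259460 to 33306916) had a scaled FPKM of 0.121, 0.145 and 0.149 (LL), 2.65, 2.29 and 2.67 (DP) and 2.51, 2.60 and 2.45 (LG). The LL libraries were far below all others, whereas DP and LG overlapped. TFEB rose in DP against LL, with a log2 fold change of 1.63 (SE 0.10, adjusted p = 3.97e-06), and in LG against LL, with 1.63 (SE 0.10, adjusted p = 5.09e-06), and was at -0.0041 (SE 0.10, adjusted p = 0.981) in LG against DP, with a 95% interval of -0.23 to 0.23. The ratio of mean scaled FPKM was 18.4 for DP over LL and 18.3 for LG over LL. These ratios are uncertain, because TFEB was at 0.06, 0.08 and 0.09 FPKM in LL as deposited. Those values lie under the filter on low values, and the read numbers behind them are unknown. The call of TFEB held in both comparisons under every alternative run, with log2 fold changes of at most 3.47 in DP and 3.46 in LG relative to LL. The lowest values were 1.04 and 1.02, just past the threshold, with unscaled values relative to the median of all genes. TFE3 (gene ID 102169369, on a scaffold without a chromosome) had a scaled FPKM of 3.94, 5.04 and 4.54 (LL), 4.86, 4.18 and 5.14 (DP) and 4.47, 5.28 and 4.78 (LG). Its stages overlapped, and it passed the adjusted p in no comparison. Without scaling TFE3 was called higher in DP (1.19) and LG (1.01) relative to LL. The ratio of TFE3 to TFEB within a library was 32.7, 34.9 and 30.6 (LL), 1.83, 1.83 and 1.93 (DP) and 1.78, 2.03 and 1.95 (LG).

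TFEB, ULK1 and ATG16L2 had a mean under 0.5 scaled FPKM in LL and of at least 1 in both DP and LG. This pattern, chosen after the values were seen, held for 3 of the 39 members, 7.69%, and for 1201 of the 14701 genes tested, 8.17%, and its source was not tested. The 4 members called higher in DP against LL (TFEB, ULK1, ATG10 and ATG16L2) were all under 0.5 FPKM in LL as deposited. They entered the test only through DP and LG, and the reads behind their LL values are unknown. ATG12, BNIP3, SQSTM1 and VMP1 stand in another part of the table, among 1387 genes that are listed after the 3078 genes at 0 in every library. The median log2 fold change of those genes was -1.11 for DP and -0.69 for LG relative to LL, and 0.66 for LG relative to DP, against 0.048, 0.050 and -0.0066 in the other 13314 genes tested. Of these listed genes, 51.8% were called lower in DP and 40.2% in LG relative to LL, and 24.5% in LG relative to DP, and of the others 4.3%, 3.12% and 5.04%. The shares called higher were 15.8%, 12.8% and 39.2% in these genes and 13.6%, 10.5% and 2.95% in the others, in the same order. How they were selected or made is not stated, and their place in the table was not tested as a source of the differences of ATG12, BNIP3, SQSTM1 and VMP1. The ratios of ATG12 to ATG5, SQSTM1 to NBR1 and BNIP3 to BNIP3L each set a gene so listed against a gene that is not. Whether these ratios follow that place was not tested.

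Members near another gene can share reads with it, because the strand was not kept. ATG12 overlaps AP3S1 by 52 bases, SQSTM1 overlaps C7H5orf45 by 573, BECN1 overlaps CNTD1 by 334 and ATG10 overlaps LOC108636339 by 1106, each on the opposite strand. Also on the opposite strand, ATG7 overlaps VGLL4 by 487 bases and ATG4D overlaps S1PR5 by 1212 and KRI1 by 331. ATG9B overlaps NOS3 by 872 bases and WIPI1 overlaps ARSG by 2, likewise on the opposite strand. The highest deposited value of these neighbours in any library was 16.73 FPKM for AP3S1, 5.16 for C7H5orf45, 3.16 for CNTD1 and 0.27 for LOC108636339. It was 18.65 FPKM for VGLL4, 4.52 for S1PR5, 7.58 for KRI1, 5.94 for NOS3 and 6.13 for ARSG.

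Genes that act around this machinery were taken from 5 further lists. Of 28 genes of the kinase switch, through which mTORC1 and AMPK control ULK1, 27 were tested and RRAGA was listed at 0 in all libraries. All genes tested were called higher and lower at 13.8% and 8.79% in DP and 10.7% and 6.61% in LG relative to LL, and at 6.37% and 6.88% in LG relative to DP, beside which the counts of these lists stand. In DP against LL, 2 were called higher, the mTOR inhibitor DEPTOR (1.31, log2 fold change) and SESN3 (1.17), a sestrin that restrains mTORC1. Another 4 were called lower, of which SESN2 (-3.09), LAMTOR2 (-1.83) and the AMPK subunit PRKAG1 (-1.51) changed most. SESN2, also a sestrin, had a scaled FPKM of 10.3, 30.7 and 11.96 (LL), 1.07, 0.590 and 1.31 (DP) and 0.718, 0.478 and 0.852 (LG), and DEPTOR had a scaled FPKM of 0.221, 0.253 and 0.264 (LL), 1.90, 2.199 and 2.17 (DP) and 2.17, 1.87 and 1.70 (LG). LL stood apart from the other stages in both genes, above them for SESN2 and below them for DEPTOR. In LG against LL, 1 gene was called higher, DEPTOR (1.22), and 2 lower, SESN2 (-3.32) and DDIT4 (-1.47), a stress-induced mTORC1 inhibitor. In LG against DP, DDIT4 was the 1 gene called lower (-1.04), with overlap of the 2 stages, and limma called 0 higher. By adjusted p alone, 6 were higher and 4 lower there (all genes, 18.4% and 16.4%).

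Of 13 other nucleation and membrane factors, 12 were tested. RUBCN, an inhibitor of autophagosome maturation, was called higher in DP (1.44, log2 fold change) and LG (1.73) against LL, with a scaled FPKM of 0.121, 0.235 and 0.281 (LL), 2.53, 2.32 and 2.04 (DP) and 3.54, 3.73 and 2.02 (LG). TMEM41B, a scramblase that works with VMP1, was called lower in DP against LL (-1.100). All 18 other cargo receptors were tested, and 1 was called higher and 5 lower in DP against LL, 0 higher and 4 lower when LG was compared with LL, and 2 higher and 1 lower in LG against DP. Over all genes tested the shares called higher and lower were 13.8% and 8.79%, 10.7% and 6.61%, and 6.37% and 6.88% in that order. FAM134B, the receptor of endoplasmic reticulum that is now named RETREG1, had a scaled FPKM of 43.3, 29.7 and 21.5 (LL), 1.52, 1.76 and 1.51 (DP) and 4.58, 5.73 and 3.49 (LG). It was highest in LL and lowest in DP without overlap, with log2 fold changes of -3.59 (adjusted p = 4.82e-06) for DP and -2.50 (adjusted p = 4.13e-05) for LG relative to LL, and 1.09 (adjusted p = 0.00647) for LG relative to DP, and its values are linked to those of a neighbour. The others with the largest differences were SEC62 (-1.73) and RTN3 (-1.73), both receptors of endoplasmic reticulum, and STBD1 (1.54), a glycogen receptor, in DP against LL. When LG was compared with LL these were CALCOCO2 (-1.07) and CCPG1 (-1.06), and in LG against DP RTN3 (1.19) and WDFY3 (-1.01).

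Of 16 genes of autophagosome fusion with the lysosome, all tested, the SNARE YKT6 was called lower in DP against LL (-1.54, log2 fold change) and higher in LG against DP (1.06), and 0 others were called by limma. By adjusted p alone and with YKT6 counted, 1 gene was higher and 3 lower in DP against LL, 1 and 2 for LG with LL, and 3 and 0 for LG with DP (all genes, 28.2% and 28.6%, 25.6% and 24.6%, and 18.4% and 16.4%). Of 9 relatives and regulators of TFEB and TFE3, 8 were tested and ZKSCAN3 was not analysed here. MITF, a relative of TFEB, had a scaled FPKM of 3.36, 3.76 and 4.91 (LL), 9.78, 11.8 and 6.59 (DP) and 1.17, 1.32 and 1.35 (LG). DP was highest and LG lowest without overlap, with log2 fold changes of 1.03 (adjusted p = 0.00161) for DP and -1.12 (adjusted p = 0.00123) for LG relative to LL, and -2.16 (adjusted p = 8.51e-05) for LG relative to DP. TFEC, another relative that is known from macrophages, had a scaled FPKM of 0.121, 0.235 and 0.116 (LL), 4.29, 1.90 and 2.32 (DP) and 1.42, 1.11 and 1.103 (LG), with 1.68 (adjusted p = 1.26e-04) in DP against LL. RUBCN, DEPTOR, STBD1 and TFEC share the low LL pattern of TFEB, with LL means of 0.21, 0.25, 0.28 and 0.16 scaled FPKM. Their LL values lie under the filter on low values, so they entered the test only through DP and LG. SESN2, LAMTOR2, PRKAG1, FAM134B, SEC62, RTN3, CALCOCO2, YKT6 and MITF are also among the genes listed after those at 0. So is the cargo receptor TAX1BP1, called lower in DP against LL (-1.34). All 5 of the other cargo receptors called lower in DP against LL are thus so listed, where 51.8% of genes were called lower.

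Marker genes of cell types also differed between the stages. Of all genes tested, 13.8% were called higher and 8.79% lower in DP against LL. These shares were 10.7% and 6.61% in LG against LL, and 6.37% and 6.88% in LG against DP. The summed scaled FPKM of 7 macrophage markers was 116, 84.2 and 86.3 (LL), 225, 201 and 278 (DP) and 108, 100.4 and 94.9 (LG), with C1QA the most abundant at 30.5, 19.2 and 20.0 (LL), 57.9, 56.4 and 76.4 (DP) and 31.8, 29.9 and 27.7 (LG). All DP libraries were above the others, 5 of the 7 were called higher in DP against LL, 1 (CD14, -1.18) lower in LG against LL and 7 of 7 lower in LG against DP. The 8 lymphocyte markers, with PTPRC the most abundant at 7.19, 5.35 and 6.82 (LL), 36.7, 19.1 and 13.2 (DP) and 8.69, 10.5 and 6.41 (LG), summed to 13.7, 11.9 and 13.3 (LL), 98.7, 41.5 and 29.7 (DP) and 26.4, 29.8 and 19.0 (LG), and the 5 tested were called higher in DP against LL. CD3D (1.46) and CD3G (1.82) were also called higher in LG against LL, and PTPRC lower in LG against DP (-1.24). CD3D and CD3G had LL means of 0.21 and 0.42 scaled FPKM, under the filter on low values. The 7 fibroblast markers summed to 218, 231 and 332 (LL), 518, 923 and 2415 (DP) and 527, 962 and 667 (LG), of which COL3A1 had the highest mean over all libraries, at 60.4, 54.5 and 88.4 (LL), 143, 233 and 799 (DP) and 268, 470.2 and 367 (LG), and 6 of 7 were called higher in DP against LL. DCN was above COL3A1 in all LL libraries and in DP replicates 1 and 2. COL1A1 (2.12) and COL3A1 (2.42) were called higher in LG against LL. The 3 of 7 called lower in LG against DP were DCN (-2.09), PDGFRA (-2.41) and PDGFRB (-1.22). DP replicate 3 had the highest fibroblast sum. The 8 luminal epithelial markers summed to 1074, 1155 and 883 (LL), 313, 567 and 388 (DP) and 855, 829.9 and 958 (LG), of which ELF5, with the highest mean over all libraries, was at 673, 676 and 439.8 (LL), 25.8, 44.2 and 26.1 (DP) and 451, 408 and 498 (LG). In every DP library KRT19 was the most abundant of them. Without ELF5 the other 7 summed to 400.2, 479 and 443 (LL), 287, 523 and 362 (DP) and 404, 421 and 461 (LG), with DP replicate 2 the highest of all libraries, and 1 of the 8, ELF5, was called lower in DP against LL (-4.19). ELF5 (3.82) and CLDN3 (1.34) were called higher in LG against DP. The part of these markers in the differences of SQSTM1, VMP1, TFEB, ATG16L2, ATG12 and the other called members was not tested.

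The 6 myoepithelial markers, with KRT5 highest by mean over all libraries and below ACTA2 in DP replicate 3, at 59.3, 67.2 and 95.3 (LL), 71.3, 333 and 118 (DP) and 105, 138 and 166 (LG), summed to 180.0, 234 and 231 (LL), 136, 453 and 347 (DP) and 225, 269.8 and 304 (LG). TP63 was called higher in DP (1.47) and LG (1.60) relative to LL, and OXTR in LG relative to LL (2.11) and to DP (1.41). TP63 and OXTR had LL means of 0.25 and 0.14 scaled FPKM, also under that filter. The 6 endothelial markers, led by PECAM1 at 67.8, 60.4 and 84.3 (LL), 60.0, 79.0 and 78.7 (DP) and 28.5, 40.8 and 42.7 (LG), summed to 110.1, 103 and 133 (LL), 126, 125 and 179.9 (DP) and 64.9, 90.3 and 89.5 (LG). Without PECAM1 the other 5 summed to 42.3, 42.7 and 48.9 (LL), 66.0, 46.4 and 101 (DP) and 36.4, 49.5 and 46.8 (LG), with overlap of all stages, and 0 of the 6 were called by limma in DP or LG against LL, where 2 were higher in DP and 1 higher and 2 lower in LG by adjusted p alone. TEK was called lower in LG against DP (-1.19), where 3 of 6 were lower by adjusted p alone. By adjusted p alone, 28.2% of all genes were higher in DP against LL, and 16.4% lower in LG against DP. In LG against LL, 25.6% were higher and 24.6% lower. The 6 adipocyte markers, with LIPE highest by mean over all libraries but in no DP library and not in LG replicate 1, at 5.02, 4.83 and 6.46 (LL), 2.39, 0.985 and 0.764 (DP) and 0.944, 1.43 and 4.12 (LG), summed to 7.80, 7.61 and 10.3 (LL), 23.5, 3.65 and 4.13 (DP) and 2.90, 3.21 and 5.40 (LG), and LIPE was called lower in DP (-1.49) and LG (-1.14) relative to LL, whereas PLIN1, PLIN4 and LEP were under the filter on low values. No marker of the 7 lists was at 0 in every library, CD163 was not analysed here, and the B cell markers CD79A, CD79B and MS4A1 were under the filter. Listed after the genes at 0 are 5 of the 7 macrophage markers (CSF1R, CD14, C1QA, C1QB and C1QC), 5 of the 7 fibroblast markers (COL1A1, COL1A2, COL3A1, DCN and PDGFRA), ELF5, CLDN3, PTPRC and PECAM1, and most of the macrophage and fibroblast sums comes from these genes. The values of KRT5, KRT14 and PECAM1 are linked to those of a neighbour.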

How the data were processed

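RNA-seq of mammary gland from 9 goats, 3 per stage, was analysed from 1 gene table. The submitters' processing notes name FastQC, Trimmomatic, HISAT2, SAMtools and HTSeq, the study's methods name StringTie for quantification, and its results use FPKM. The table names no unit, and the values the authors deposited were read as FPKM per gene, since library totals differ and values are not whole. How transcripts were joined into genes is not known. The number of reads behind each value is unknown, so no count test was run. Gene positions are those of the table, which match RefSeq for 23465 of 23465 gene IDs found there.

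Median-ratio factors came from 15905 genes. Genes reaching 0.5 FPKM in 3 or more libraries entered the test on log2(scaled FPKM + 1) with limma 3.58.1 in R 4.3.3, with a mean-variance trend, all 9 libraries in one fit without covariates, with Benjamini-Hochberg adjustment. All adjusted p-values are from limma. Members and lists were chosen with earlier results of these data known. Full statistics are given for members called in at least 1 comparison and for SQSTM1, MAP1LC3B, ULK1, BECN1 and TFEB, and for genes of other lists at most the 3 largest calls per direction and comparison. RETREG1 and C9ORF72 were matched by older symbols, and 1 gene of a further list is not reported here. Neighbouring genes were called linked when a straight line, or a line plus the amounts most often shared between neighbours (added after the values were seen), left residuals of at most 1% of the range. Sequence features of members were not analysed here.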

Additional observations from a re-analysis of the deposited data

How the results depend on the processing

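The counts depend on the scaling between libraries. With no scaling, 30, 17 and 0 members were called higher and 0, 0 and 4 lower in the comparisons of DP with LL, LG with LL and LG with DP, where 54.3%, 45.6% and 4.86% of all genes tested were called higher and 2.51%, 2.35% and 10.7% lower. The members' median log2 fold change was 1.27, 0.86 and -0.25, and 95.6%, 95.1% and 31.2% of all calls in the table were higher, against 61.1%, 61.8% and 48.1% with it. This turned the direction of 13, 18 and 9 of the 39 members in these comparisons. Those called with or without the factors were, in DP against LL, GABARAP (1.26), GABARAPL1 (0.14), BECN1 (1.05), ATG101 (1.07), ATG13 (1.08), MAP1LC3B (1.11) and BNIP3 (0.11), and for LG with LL GABARAP (1.05). With each unscaled fold change taken relative to the median of all genes, 2 members were called higher and 1 lower in DP against LL, 2 and 2 for LG with LL and 0 and 2 for LG with DP (all genes, 9.6% and 7.68%, 6.12% and 6.95%, 6.71% and 7.94%), and 46.8% of all calls for LG with LL were higher. After quantile normalization, 4 members were called higher and 1 lower in DP against LL, 2 and 2 for LG with LL and 0 and 3 for LG with DP (all genes, 12.2% and 7.29%, 8.92% and 5.75%, 5.74% and 6.79%), with medians of 0.031 for LG with LL and -0.14 for LG with DP. The cause of these shifts was not tested beyond the change of scale.

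Without the fold threshold, 8 members were higher and 8 lower in DP against LL, 7 and 8 for LG with LL and 3 and 7 for LG with DP (all genes, 28.2% and 28.6%, 25.6% and 24.6%, and 18.4% and 16.4%). Without linked genes, 1 of 36 members was called lower for LG with DP (all genes, 7.07%), because VMP1 was left out. Without the genes listed after those at 0, an alternative chosen after seeing the data that leaves 35 members, 1 was called lower in DP against LL, 1 for LG with LL and 0 for LG with DP (all genes, 4.79%, 3.27% and 4.78%), since ATG12, BNIP3, SQSTM1 and VMP1 were left out, and 73.3% and 75.9% of all calls in DP and LG against LL, and 39.3% for LG with DP, were higher. Members called higher for LG with LL fell from 4 to 3 (all genes, 10.3%), with NBR1 under the fold threshold.

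Leaving out each library in turn gave 3 to 4 members called higher and 2 to 3 lower in DP against LL, 3 to 4 higher and 2 to 4 lower for LG with LL, and 0 to 1 higher and 1 to 3 lower for LG with DP. The 1 member higher came without DP replicate 1, and the 1 lower without DP replicate 2 or LG replicate 1. Of all genes tested, 12.7% to 14.3% were called higher and 8.51% to 9.75% lower in DP against LL. These shares were 10.1% to 11% and 6.34% to 6.8% for LG with LL. For LG with DP they were 5.92% to 6.82% and 6.06% to 7.15%. The median log2 fold change of members was 0.041 to 0.10, -0.11 to -0.020 and -0.042 to -0.0015 in the 3 comparisons.

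The 9 goats are different animals, so the replicate numbers do not pair them. Deviations from the stage means correlated at -0.11 to 0.20 between libraries of the same number, and at -0.22 to 0.072 between others, and 10 of 18 comparisons of a library with another stage were highest with its own number. With the replicate number as a block, 4 members were called higher and 3 lower in DP against LL, 4 and 3 for LG with LL and 0 and 2 for LG with DP, as without it (all genes, 13.9% and 8.82%, 10.8% and 6.67%, and 6.48% and 7.03%). A pseudocount of 0.1, no filter or a filter at 2 FPKM, only the libraries of the 2 stages compared, and no trend changed no count of members called by more than 1. As the read numbers behind single values are unknown, their sampling error is too.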
